A study of Mus musculus with 12 samples.

Results

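Tumors of mice given anti-PD-1 antibody alone were compared with tumors of mice given vehicle, over all genes of the count table. The comparison covers 6 of the 12 tumors of the series, chosen by their group labels: 3 tumors under anti-PD-1 (PD replicates 1 to 3) and 3 under vehicle (Con replicates 1 to 3). MC38, a mouse colon carcinoma cell line, had been injected subcutaneously into the right flank of wild-type female C57BL/6 mice, 6 weeks old at purchase or at injection, and the tumors were taken on day 19. The PD group received the antibody intraperitoneally at 200 μg per injection, 2 injections a week. The Con group received saline containing the solvent DMSO and the detergent Tween, and an IgG2a isotype antibody. A further 3 tumors came from mice given SFIH, the sesquiterpene lactone-rich fraction of the plant Inula helenium, at 50 mg/kg daily, and 3 from mice given both agents (Comb). All groups share the cell line, the flank site and the day, so the data describe 1 transplanted line at 1 time point. The labels call the source tumor cells, but the RNA was taken from whole tumor tissue, and 6 of 7 measured T cell, 7 of 8 macrophage, 4 of 5 endothelial and 6 of 6 fibroblast markers were above the floor of 3 counts in all 6 tumors. The epithelial marker Epcam was at or near the floor in each of them, with 10 counts in all. Of the 5 epithelial markers 1, Cdh1, was above the floor in all 6 tumors, with 23 to 115 counts. The labels do not say that each tumor came from its own mouse, and p-values weigh group differences against the spread between these tumors.

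PD-1, encoded by Pdcd1, is an inhibitory receptor of activated T cells, and its ligands PD-L1 (Cd274) and PD-L2 (Pdcd1lg2) are carried by tumor cells and by myeloid cells. Blocking the receptor is known to release T cells that then secrete interferon gamma. Interferon gamma acts through IRF1, among other factors, on guanylate-binding proteins, on the chemokines CXCL9 and CXCL10, on MHC class II through CIITA, and on PD-L1 itself. The question of the comparison was which of these genes, and which others, differed in the tumor under the antibody alone.

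The deposited values are read counts of 3′ end libraries, between 9611832 and 10960304 per Con tumor and between 7870741 and 9559843 per PD tumor. Levels are given as TMM-scaled CPM, the count relative to library size, and 3 counts correspond to between 0.274 and 0.381 CPM in these tumors before TMM scaling. The ribosomal RNA precursor Rn45s took 6.84% to 10.3% of the counts in Con and 9.43%, 17.1% and 7.26% in PD replicates 1, 2 and 3. PD replicate 2 stood apart from the other PD tumors. By Euclidean distance over 500 highly variable genes, after the variance-stabilizing transformation of DESeq2, it was at distances of 27.53 and 24.04 from PD replicates 1 and 3, which were 12.9 apart, and the Con tumors were 12.7 to 15.8 apart. Its 4 erythroid markers summed to 1577 CPM, against 65.6 to 346.9 CPM in the other 5 tumors. Its 3 Schwann cell markers summed to 20.2 CPM, against 0.632 to 4.98 CPM, and its 5 epithelial markers to 22.8 CPM, against 3.47 to 5.42 CPM. The 7 skeletal muscle markers summed to 121.9 CPM in PD replicate 1 and to 4.09 to 13.3 CPM in the other 5. The part of these differences in the results below was not tested, and the main gene lists are given with and without PD replicate 2.

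Of 23282 lines in the table, 12670 had enough counts to be tested. No gene passed an adjusted p of 0.05 in the quasi-likelihood test of edgeR (smallest adjusted p = 0.099), although 1609 genes (12.7%) had an unadjusted p under 0.05, 812 of them (6.41%) higher and 797 (6.29%) lower in PD. This split depended on the scaling, with 586 higher and 1118 lower without TMM and 922 and 662 with RLE size factors. DESeq2 on the same counts called 278 genes (2.19%), of which 192 (1.52%) were higher and 86 (0.679%) lower, and all 278 had an unadjusted edgeR p under 0.05. In 1029 genes (8.12%) all 3 PD tumors were above all 3 Con tumors, and in 1385 genes (10.9%) all 3 were below, and these are the shares beside which the counts of each list are to be read. Since the test of edgeR called no gene, genes are described below as higher or lower, with the values of every tumor. Among genes with an unadjusted p under 0.05, a difference of at least 1 on the log2 scale was seen in 358 higher and 165 lower genes. The call depended on PD replicate 2: without it edgeR called 80 genes (35 higher, 45 lower) and DESeq2 639 (313 higher, 326 lower). Without PD replicate 1 edgeR called 1 gene, and without any of the other 4 tumors it called 0.

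**Figure D1:**
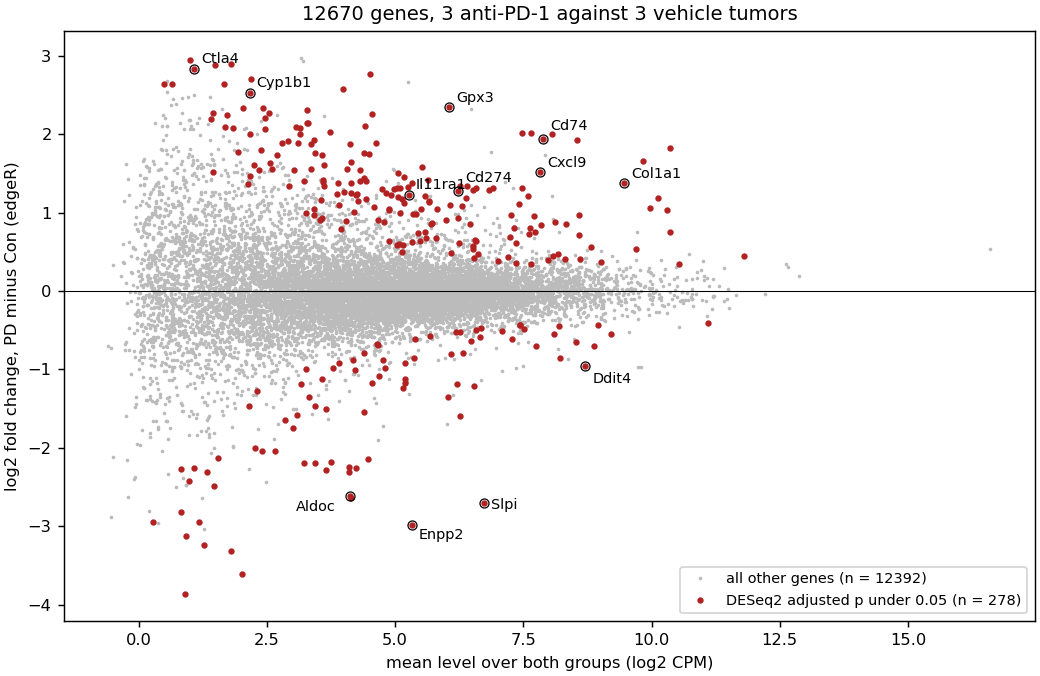
Log2 fold change of PD over Con (edgeR, vertical axis) against the mean level of both groups (log2 CPM, horizontal axis) for 12670 genes, with the 278 genes called by DESeq2 as large points and a few named genes circled. There are 192 called genes above 0 and 86 below 0, and among the latter Enpp2, Slpi and Aldoc have large differences at moderate levels.

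Start regions are shown for 3 interferon-induced genes that were higher in PD and for 3 hypoxia-induced genes that were lower, because the interferon-induced GTPases and the hypoxia genes were the lists with the largest share of members above and below the Con range. The windows run from 250 bases before to 50 bases after the start of the gene (RefSeq, GRCm38.p6, 5′ to 3′ on the strand of the gene). Capitals in the first 3 mark the letters TTCNNNGAA, the core letters of the gamma-activated sequence, and GAAANNGAAA, the form bound by interferon regulatory factors, on either strand.
Irf1 (chr11:53769764-53770063, plus strand): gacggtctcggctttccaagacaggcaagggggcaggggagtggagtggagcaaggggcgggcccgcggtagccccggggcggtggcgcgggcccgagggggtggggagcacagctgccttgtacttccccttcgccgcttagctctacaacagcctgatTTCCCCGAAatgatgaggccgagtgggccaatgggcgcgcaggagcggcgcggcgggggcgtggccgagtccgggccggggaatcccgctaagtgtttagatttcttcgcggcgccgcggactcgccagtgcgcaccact
Gbp5 (chr3:142496684-142496983, plus strand): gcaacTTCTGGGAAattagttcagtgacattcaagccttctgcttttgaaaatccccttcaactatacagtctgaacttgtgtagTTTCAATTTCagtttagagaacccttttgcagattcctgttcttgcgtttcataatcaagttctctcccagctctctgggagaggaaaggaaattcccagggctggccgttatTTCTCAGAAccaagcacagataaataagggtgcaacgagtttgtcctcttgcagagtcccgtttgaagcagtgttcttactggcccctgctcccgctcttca
Gbp7 (chr3:142530086-142530385, plus strand): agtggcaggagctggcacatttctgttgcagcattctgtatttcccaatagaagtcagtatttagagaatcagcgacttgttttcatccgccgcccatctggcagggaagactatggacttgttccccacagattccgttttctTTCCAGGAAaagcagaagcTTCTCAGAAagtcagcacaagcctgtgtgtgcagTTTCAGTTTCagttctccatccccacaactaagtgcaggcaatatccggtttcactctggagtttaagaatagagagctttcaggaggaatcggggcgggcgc
In the next 3 windows capitals mark ACGTG, the core of the hypoxia response element, on either strand.
Bnip3 (chr7:138909457-138909756, minus strand): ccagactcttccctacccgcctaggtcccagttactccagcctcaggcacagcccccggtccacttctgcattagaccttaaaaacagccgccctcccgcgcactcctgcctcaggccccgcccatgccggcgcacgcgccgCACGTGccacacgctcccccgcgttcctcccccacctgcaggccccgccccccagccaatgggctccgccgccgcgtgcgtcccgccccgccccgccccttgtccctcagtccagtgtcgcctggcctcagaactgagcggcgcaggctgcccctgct
Pgk1 (chrX:106186850-106187149, plus strand): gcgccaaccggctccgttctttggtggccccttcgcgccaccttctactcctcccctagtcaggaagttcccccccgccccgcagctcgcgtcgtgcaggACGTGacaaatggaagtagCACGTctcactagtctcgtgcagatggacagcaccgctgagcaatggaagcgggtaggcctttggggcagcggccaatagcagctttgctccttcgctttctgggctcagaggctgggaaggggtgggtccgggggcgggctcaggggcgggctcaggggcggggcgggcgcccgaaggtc
Ddit4 (chr10:59951721-59952020, minus strand): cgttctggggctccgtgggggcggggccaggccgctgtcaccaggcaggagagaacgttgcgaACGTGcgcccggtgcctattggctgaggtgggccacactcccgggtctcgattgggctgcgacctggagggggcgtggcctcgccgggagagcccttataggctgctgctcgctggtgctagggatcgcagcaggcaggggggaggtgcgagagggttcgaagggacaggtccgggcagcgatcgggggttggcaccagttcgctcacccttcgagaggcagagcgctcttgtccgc
Irf1 has the gamma-activated form TTCCCCGAA with its first base 90 bases upstream of the start shown, and a further RefSeq start of Irf1, with the window chr11:53770223-53770522, has no match. Gbp5 and Gbp7 each have 2 gamma-activated forms and 1 interferon regulatory factor form. In Bnip3 the 2 matches to ACGTG overlap each other on opposite strands, Pgk1 has 2 separate ones, and Ddit4 has 1. Among 27025 gene symbols with a window, and counting a match in any window of a symbol, TTCNNNGAA was found in 9.55%, GAAANNGAAA in 3.99% and ACGTG in 21.8%. Of the 20 tested interferon-induced GTPases 11 had a window, and 10 of the 11 (90.9%) held GAAANNGAAA and 6 (54.5%) TTCNNNGAA. In the hypoxia and glycolysis list 31 of 35 tested genes had a window, and 22 of the 31 (71%) held ACGTG. Of the 15 tested MHC class II genes 11 had a window, 1 of them (Ctss) with GAAANNGAAA and none with TTCNNNGAA. A match describes the letters in the window and not the binding of a factor.

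Many interferon-induced GTPase genes were higher under anti-PD-1. In the list of interferon-induced GTPases, which act against intracellular pathogens and are standard readouts of interferon gamma, 13 of 20 tested members (65%) had all PD tumors above all Con tumors, against 8.12% of all genes, and none had the reverse order. DESeq2 called 8 of the 20, all higher. Gbp4 had 22.3, 20.4 and 22.7 CPM in the Con tumors and 41.9, 55.5 and 66.9 CPM in the PD tumors, a log2 fold change of 1.33 ± 0.19 (SE), with an adjusted p of 0.136 by edgeR and 8.87e-07 by DESeq2. Gbp7 had 248, 261 and 270.1 CPM in Con and 504, 383 and 630.2 CPM in PD (log2 fold change 0.96 ± 0.17, DESeq2 adjusted p = 0.000121). The ranges of both genes were well apart, and PD replicate 2 was not the highest tumor for either. Iigp1, an immunity-related GTPase, had 301, 249.9 and 323 CPM in Con and 453, 459 and 527 CPM in PD (log2 fold change 0.72). Gbp6 and Gbp5 had 18.2, 16.2 and 18.7 CPM and 69.97, 80.3 and 73.4 CPM in Con and 31.2, 29.7 and 38.4 CPM and 112, 108 and 126 CPM in PD. The median log2 fold change of the 20 GTPases was 0.56, while the median of all genes was -0.02, and it was 0.57 without PD replicate 2. In bulk tissue, more cells of a type and more RNA per cell cannot be told apart, here and in every result that follows.

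The wider interferon gamma pathway list held 13 of 45 tested members (28.9%) above the Con range and 1 below it, and DESeq2 called 5. Irf1, the transcription factor that carries the signal to many targets, had 307, 376 and 408 CPM in Con and 540.2, 502 and 566 CPM in PD, a difference of 0.56 ± 0.13 (SE) on the log2 scale. Batf2, a partner factor of IRF1 in macrophages, had 11.6, 12.3 and 10.1 CPM in Con and 20.8, 18.04 and 20.1 CPM in PD. In both genes the 3 PD tumors were close to each other and above the highest Con tumor. Ifng itself was near the limit of detection, with 8, 2 and 14 counts in the Con tumors and 17, 44 and 19 counts in the PD tumors. The log2 fold change of Ifng was 2.10 ± 0.73 (edgeR adjusted p = 0.312, DESeq2 adjusted p = 0.144) and was 1.34 without PD replicate 2. Il18r1, a receptor chain through which IL-18 raises interferon gamma in T and NK cells, had 0.903, 0.932 and 0.941 CPM in Con and 3.47, 6.77 and 3.36 CPM in PD. Il12b, the p40 chain of IL-12, had 3.52, 2.59 and 2.63 CPM in Con and 4.01, 19.2 and 9.46 CPM in PD, again with the highest value in replicate 2. The median over the list was 0.27 on the log2 scale and 0.31 without PD replicate 2.

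Type I interferon-stimulated genes were described in the same way. Of 47 tested members 1 (2.13%) was above the Con range and 11 (23.4%) were below it, against 10.9% of all genes, and DESeq2 called 0 of them in either direction, while 8 had an unadjusted edgeR p under 0.05, all lower. Oasl1, of the antiviral oligoadenylate synthetase family, had 101, 84.1 and 95.3 CPM in Con and 65.4, 76.3 and 67.7 CPM in PD. Usp18, the protease that removes ISG15 from proteins, had 82.1, 90.6 and 83.2 CPM and 65.9, 46.8 and 71.3 CPM. These differences were small, -0.42 ± 0.12 (SE) and -0.47 ± 0.16 (SE) on the log2 scale. The abundant Ifitm3 had 2595, 2439 and 2434 CPM in Con and 2011, 2169 and 2194 CPM in PD. Leaving out PD replicate 2 put 8 members (17%) above the Con range and 16 (34%) below it, against 16.7% and 20.3% of all genes. The median of the list was -0.08, and it was 0.02 without PD replicate 2, so its sign depended on that tumor. The difference between this list and the interferon gamma lists was not tested.

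**Figure D2:**
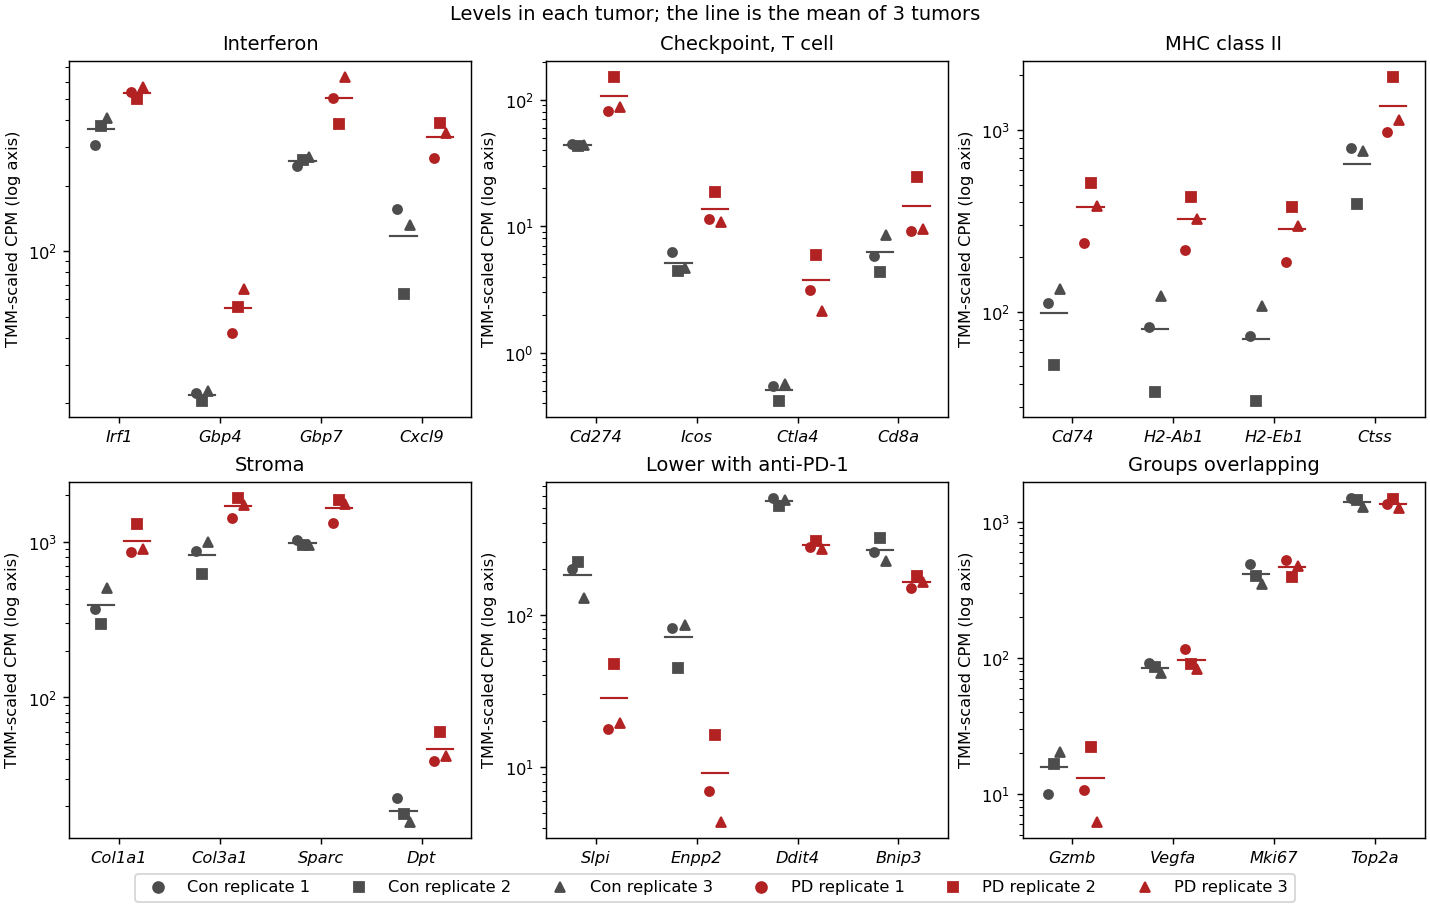
TMM-scaled CPM (log axis) of 24 genes in each of the 3 Con and 3 PD tumors, with the replicate number as the marker and the group mean as a line. Points of the first 5 panels do not overlap between the groups, while those of Gzmb, Vegfa, Mki67 and Top2a in the last panel do.

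Some chemokines that draw T cells and monocytes were higher. Of 25 tested chemokines and receptors in that list, 8 (32%, against 8.12% of all genes) were above the Con range and 0 below it, and DESeq2 called 4 (2.19% of all genes). Cxcl9, the CXCR3 ligand induced by interferon gamma, had 156, 63.6 and 132 CPM in Con and 269, 388 and 348 CPM in PD, a log2 fold change of 1.51 ± 0.31 (SE) with an adjusted p of 0.191 by edgeR and 9.51e-05 by DESeq2. Con replicate 2 was the lowest of the 6 tumors for Cxcl9, and the lowest PD tumor was above the highest Con tumor. Cxcl10, another CXCR3 ligand, overlapped between the groups, with 324, 364 and 369.7 CPM in Con and 553, 293 and 679 CPM in PD. Its PD replicates 1 and 3 were above all Con tumors and replicate 2 below them. Without replicate 2 the log2 fold change of Cxcl10 was 0.84 rather than 0.53, with an edgeR adjusted p of 0.046. Ccl5, a chemokine made by cytotoxic T cells, had 54.98, 47.5 and 51.5 CPM in Con and 72.6, 106 and 116 CPM in PD. Ccr2, the receptor of inflammatory monocytes, had 35.2, 23.6 and 36.03 CPM in Con and 68.03, 82.7 and 59.4 CPM in PD (log2 fold change 1.15, DESeq2 adjusted p = 0.0001). Cxcl12, the stromal ligand of CXCR4, had 3.25, 7.04 and 4.61 CPM in Con and 10.1, 27.1 and 13.2 CPM in PD.

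The PD-1 ligand gene was higher in every PD tumor. Cd274 had 44.8, 43.4 and 44.2 CPM in Con, within a narrow range, and 81.5, 150.3 and 87.8 CPM in PD, a log2 fold change of 1.27 ± 0.23 (SE) with an adjusted p of 0.148 by edgeR and 6.43e-05 by DESeq2. Without PD replicate 2 the log2 fold change of Cd274 was 0.97, with an edgeR adjusted p of 0.026. Pdcd1lg2 was at the edge of detection, with 0, 6 and 12 counts in Con and 12, 40 and 29 counts in PD. The receptor gene Pdcd1 had 12, 9 and 21 counts in Con and 22, 58 and 20 counts in PD, where PD replicates 1 and 3 were within 1 count of the highest Con tumor before scaling. Ctla4, another inhibitory receptor of T cells that is targeted in the clinic, had 6, 4 and 6 counts in Con and 29, 42 and 21 counts in PD, a log2 fold change of 2.83 ± 0.53 (SE) and a DESeq2 adjusted p of 0.00283. These counts are low, but the 2 groups did not overlap. In the checkpoint list as a whole 4 of 15 tested members (26.7%) were above the Con range and 0 below it, and the median log2 fold change of 0.58 was 0.18 without PD replicate 2 and 0.17 without Con replicate 2. Pvr, the ligand of TIGIT, overlapped at 98.3, 111 and 76.95 CPM in Con and 63.5, 77.7 and 61.4 CPM in PD.

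Some T cell genes were higher, and the mean of the T cell list was highest in PD replicate 2. Of 31 tested genes of the T cell receptor complex and its signaling, 10 (32.3%) were above the Con range and 1 below it, and DESeq2 called 3. The mean log2(CPM + 1) of this list was 2.41, 2.11 and 2.62 in the Con tumors and 2.56, 3.55 and 2.91 in PD replicates 1, 2 and 3, so PD replicate 1 was within the Con range. The median log2 fold change was 1.01 with all tumors and 0.56 without PD replicate 2. Icos, a costimulatory receptor, had 6.23, 4.45 and 4.70 CPM in Con and 11.4, 18.6 and 10.8 CPM in PD (DESeq2 adjusted p = 0.00377). Cd2, an adhesion receptor of T and NK cells, had 2.98, 2.28 and 4.23 CPM in Con and 7.49, 23.3 and 10.1 CPM in PD (DESeq2 adjusted p = 0.00165). The receptor chain gene Cd247 had 4.15, 2.80 and 4.14 CPM in Con and 6.62, 7.61 and 8.75 CPM in PD. Cd3e overlapped, with 25, 10 and 30 counts in Con and 24, 52 and 35 counts in PD. Cd8a, which marks cytotoxic T cells, had 5.78, 4.35 and 8.56 CPM in Con and 9.11, 24.7 and 9.56 CPM in PD. PD replicates 1 and 3 were thus close to the highest Con tumor, and the edgeR adjusted p was 0.334. Cd4 overlapped at 4, 8 and 23 counts in Con and 7, 29 and 24 counts in PD.

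Effector genes were mixed. Of 29 tested cytotoxic effectors, 7 (24.1%) were above the Con range and 4 (13.8%) below it, and the median of 0.39 was 0.06 without PD replicate 2. Srgn, the proteoglycan of cytotoxic granules that myeloid cells also make, had 68.5, 54.9 and 74.5 CPM in Con and 109, 249 and 127 CPM in PD (DESeq2 adjusted p = 0.00145). Gzmc, a granzyme, was lower, with 119.7, 76.5 and 86.5 CPM in Con and 21.3, 62.2 and 27.7 CPM in PD (log2 fold change -1.36, DESeq2 adjusted p = 0.0188). Gzmb overlapped at 10.02, 16.6 and 20.3 CPM in Con and 10.7, 22.1 and 6.20 CPM in PD, with an estimate of -0.28 ± 0.45 (SE) on the log2 scale. Prf1, the pore-forming protein of granules, had 4.24, 1.14 and 2.82 CPM in Con and 2.06, 2.82 and 0.915 CPM in PD, and the ranges overlapped as well. The NK cell list, with a median of 0.55 that was 0.03 without PD replicate 2, had 2 of 14 tested members (14.3%) above the Con range and 1 (7.14%) below it, near the 8.12% and 10.9% of all genes. Those above include Nkg7, a granule protein gene, at 10.2, 8.80 and 13.6 CPM in Con and 15.1, 43.4 and 15.6 CPM in PD. Eomes, a transcription factor of NK and memory T cells, was in the reverse order, with 36.8, 29.1 and 26.7 CPM in Con and 25.4, 21.7 and 22.5 CPM in PD. Ncr1, which encodes NKp46, had 3 to 14 counts per tumor and was too low to be tested.

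Genes of regulatory T cells and costimulation were above the Con range in 7 of 17 tested members (41.2%), and the median of 0.54 was 0.52 without PD replicate 2. Tnfrsf4 (OX40), a costimulatory receptor, had 4.06, 1.86 and 3.20 CPM in Con and 6.29, 14.2 and 6.51 CPM in PD. Entpd1 (CD39), an ectonucleotidase, had 9.84, 5.18 and 9.41 CPM in Con and 12.4, 34.5 and 16.9 CPM in PD. Foxp3, the defining factor of regulatory T cells, did not separate the groups, with 20.7, 14.6 and 19.3 CPM in Con and 13.9, 18.7 and 19.4 CPM in PD (log2 fold change -0.07 ± 0.21). Ms4a1 (CD20), a defining marker of B cells, was at the floor in both groups, with 5 counts over the 6 tumors. None of the 7 tested members of the B and plasma cell list had all 3 PD tumors above or all 3 below the Con tumors.

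Antigen presentation by MHC class II was the list with the largest share of members called by DESeq2. Of 15 tested members of the class II list 8 (53.3%) were above the Con range, 1 was below it, and DESeq2 called 8, all higher. H2-Aa had 136, 71.1 and 259 CPM in Con and 456, 705 and 607 CPM in PD. H2-Ab1 had 81.97, 36.1 and 122 CPM in Con and 218, 427 and 323 CPM in PD, and H2-Eb1 had 73.7, 32.1 and 107 CPM and 187, 375 and 296 CPM. These 3 genes encode the classical class II chains, and their log2 fold changes of 1.92, 2.01 and 2.01 each had an SE of 0.42. Con replicate 2 was the lowest tumor in all of them and PD replicate 2 the highest. Cd74, the invariant chain, had 111, 50.9 and 134 CPM in Con and 238, 508 and 383 CPM in PD, with an adjusted p of 0.177 by edgeR and 1.26e-05 by DESeq2. H2-DMb1, part of the chaperone that exchanges peptides on class II molecules, had 45.9, 33.2 and 54.2 CPM and 80.8, 87.95 and 80.6 CPM, with PD tumors close together. Ctss, the protease that trims the invariant chain, had 798, 390.0 and 769 CPM in Con and 974, 1952 and 1141 CPM in PD. Ciita, the master regulator of class II genes, had 5, 1 and 6 counts in Con and 22, 22 and 18 counts in PD (log2 fold change 2.64 ± 0.59, DESeq2 adjusted p = 0.0309). The median of the list was 0.90 with all tumors and 0.73 without PD replicate 2.

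Among 27 tested MHC class I genes 1 was above the Con range and 1 below it, DESeq2 called 0, edgeR gave 1 an unadjusted p under 0.05, and the median log2 fold change was 0.18. Without PD replicate 2, 9 (33.3%) were above the Con range, against 16.7% of all genes, and the median was 0.19. Without PD replicate 1, 1 (3.7%) was above it, against 12.5% of all genes, and the median was 0.05. B2m, the light chain, had 5459, 5543 and 6342 CPM in Con and 6075, 9295 and 6096 CPM in PD, where only replicate 2 was above the Con range. H2-D1 overlapped fully, with 1095, 1964 and 2219 CPM in Con and 1925, 1847 and 1585 CPM in PD. Psme1, an activator subunit of the immunoproteasome, was the member above the range, by a small margin, at 305, 289 and 262 CPM in Con and 323, 307 and 371 CPM in PD. The difference in response between the class I and class II lists is a comparison of medians and was not tested.

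Almost all macrophage genes had a log2 fold change above 0, fewer had separate groups, and the mean of the list was highest in PD replicate 2. In the list of macrophage genes and Fc receptors 39 of 40 tested members had a log2 fold change above 0, as did 47.6% of all genes, 17 (42.5%) had all PD tumors above all Con tumors, 0 had the reverse, and DESeq2 called 8. Mean log2(CPM + 1) was 5.77, 5.23 and 5.84 in Con and 5.93, 6.94 and 6.18 in PD. The median of 0.85 was 0.47 without PD replicate 2, and 18 of 40 genes were then above the Con range, against 16.7% of all genes. Apoe, the lipid carrier abundant in tumor macrophages, had 483, 302 and 531 CPM in Con and 676, 2108 and 1349.9 CPM in PD. Csf2ra, the GM-CSF receptor chain, had 23.6, 10.2 and 23.7 CPM in Con and 43.9, 59.5 and 54.2 CPM in PD (DESeq2 adjusted p = 0.000576). Lyz2, a lysozyme of myeloid cells, had 25.8, 18.6 and 24.8 CPM and 33.96, 109 and 65 CPM. Adgre1, which encodes F4/80, overlapped between the groups at 39.1, 18.3 and 34.8 CPM in Con and 30.9, 93.7 and 41.6 CPM in PD, and Itgam, which encodes CD11b, had 18.4, 15.3 and 22.5 CPM and 31.9, 49.5 and 23.5 CPM.

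Markers of alternative activation followed the same tumors. Of 27 tested members 7 (25.9%) were above the Con range and 1 below it, and the median of 0.71 was 0.26 without PD replicate 2. Mrc1 (CD206) had 26.1, 32.6 and 23.4 CPM in Con and 31.9, 125 and 62.5 CPM in PD, with PD replicate 1 inside the Con range. Nos2, the inducible nitric oxide synthase of classically activated macrophages, was low in both groups at 2.44, 8.49 and 5.55 CPM and 5.42, 2.68 and 2.54 CPM. Chil3, a chitinase-like protein of alternatively activated macrophages, had 5.96, 2.59 and 4.61 CPM in Con and 10.5, 23.1 and 14.9 CPM in PD (DESeq2 adjusted p = 0.000809). Clec10a and Mgl2, C-type lectins shared by macrophages and dendritic cells, had 5.60, 11.1 and 7.43 CPM and 2.08, 4.76 and 3.76 CPM in Con and 14.3, 49.1 and 40.2 CPM and 6.18, 21.1 and 15.2 CPM in PD. The dendritic cell list, which also holds these lectins, had 6 of 23 tested members (26.1%, against 8.12% of all genes) above the Con range and 1 below it. Its median was 0.56, or 0.34 without PD replicate 2. Of 5 tested dendritic cell markers 1 (Xcr1) was above the Con range and 1 (Zbtb46) below it. In the complement list 5 of 26 members (19.2%) were above it and 0 below (median 0.63, or 0.31 without PD replicate 2), with C1qc at 129, 106 and 156 CPM in Con and 159.8, 298 and 200.4 CPM in PD.

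Several mast cell genes were higher, with low counts. Tpsb2, a tryptase, had 38, 26 and 51 counts in Con and 138, 127 and 78 counts in PD, and Cpa3, a carboxypeptidase, had 21, 18 and 35 and 48, 56 and 84 counts. Cma1, a chymase, had 9, 7 and 22 counts in Con and 44, 58 and 26 counts in PD, and Mcpt4, another chymase, had 11, 2 and 15 and 24, 30 and 25 counts. These 4 genes had every PD tumor above every Con tumor in CPM, and DESeq2 called 3 of them (adjusted p = 0.000502 for Tpsb2, 0.0129 for Cpa3 and 0.0392 for Cma1). They were the 4 of 12 tested erythroid and mast cell genes above the Con range (33.3%, against 8.12% of all genes), and 0 were below it. Among all genes DESeq2 called 2.19%. Ms4a2 and Fcer1a of the same list, with 13 and 18 counts over the 6 tumors, were too low to be tested. Kit, the receptor of stem cell factor on mast cells, overlapped, with 2.53, 1.45 and 3.01 CPM in Con and 2.06, 3.52 and 2.14 CPM in PD. The fitted log2 fold changes of the 4 lay between 1.61 for Cpa3 and 2.08 for Cma1. Of 17 tested neutrophil genes 1 was above the Con range and 2 (11.8%) below it. Without PD replicate 2, 7 (41.2%) were below, against 20.3% of all genes, and the median was -0.64 rather than 0.00. Lcn2 and Padi4, the members below it, had 6.32, 2.90 and 2.92 CPM and 18.4, 19.4 and 28.9 CPM in Con and 1.19, 1.13 and 1.02 CPM and 11.8, 13.2 and 5.39 CPM in PD.

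**Figure D3:**
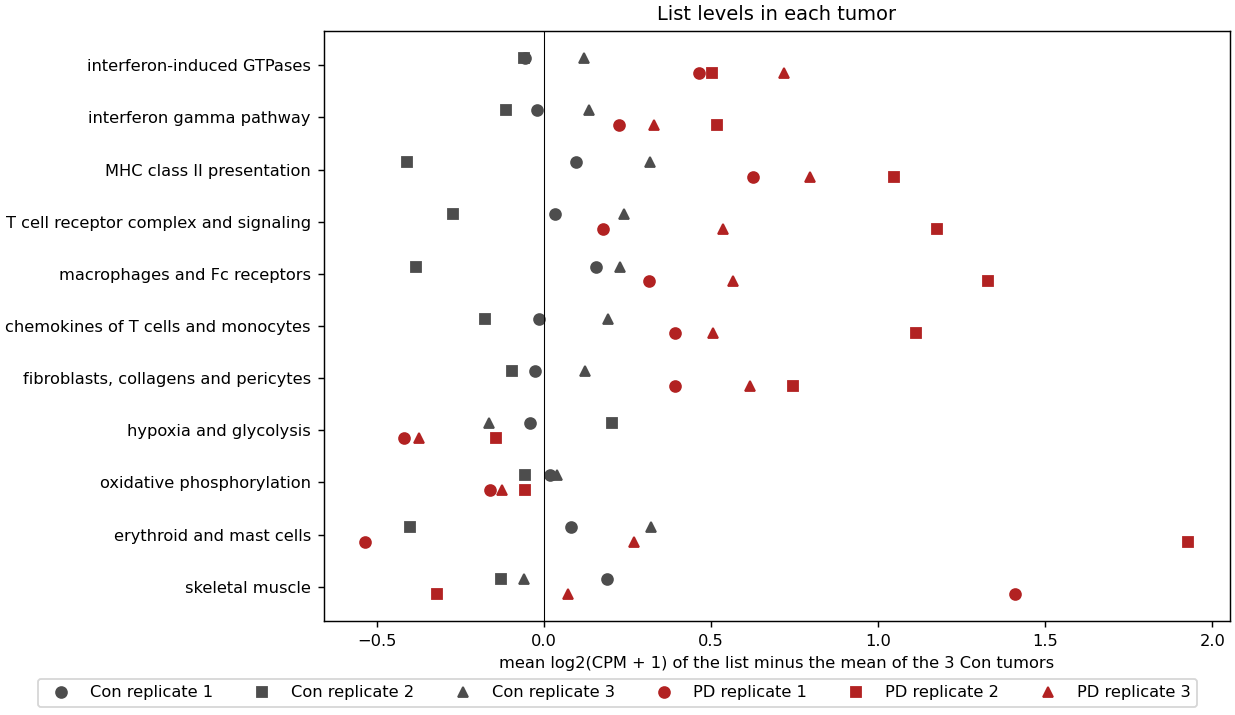
Mean log2(CPM + 1) of 11 gene lists in each tumor, as the difference from the mean of the 3 Con tumors. All 3 PD tumors are to the right of all Con tumors for the GTPase, interferon gamma, MHC class II, macrophage, chemokine and fibroblast lists but not for the T cell list, and PD replicate 2 is far to the right for erythroid and PD replicate 1 for skeletal muscle genes.

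Many genes of fibroblasts and the extracellular matrix were higher under anti-PD-1. Of 45 tested members 16 (35.6%, against 8.12% of all genes) were above the Con range and 1 below it, and DESeq2 called 13, all higher. Of the 6 fibroblast markers 3 were above the Con range. Pdgfra and Pdgfrb, the receptors of platelet-derived growth factor on fibroblasts and pericytes, overlapped, with 75.4, 84.5 and 67.4 CPM and 32.1, 37.9 and 56.1 CPM in Con and 129, 51.7 and 117 CPM and 54.7, 18.9 and 51.9 CPM in PD. For both, PD replicate 2 was the lowest of the 6 tumors. The median was 0.75, and it was 0.68 without PD replicate 2 and 0.75 without PD replicate 1. Col1a1, a chain of type I collagen, had 369, 297 and 508 CPM in Con and 862, 1291 and 894 CPM in PD, a log2 fold change of 1.38 ± 0.23 (SE) with an adjusted p of 0.136 by edgeR and 2.21e-06 by DESeq2. Col3a1, of type III collagen, had 869.8, 618 and 988 CPM in Con and 1420.1, 1907 and 1721 CPM in PD. Sparc, a matrix glycoprotein, had 1019.9, 956 and 955 CPM and 1317, 1857 and 1742 CPM. The matrix metalloprotease gene Mmp14 had 211, 188 and 186 CPM in Con and 413, 254 and 406 CPM in PD, with PD replicate 2 the lowest of the 3. Among the 10 higher genes with the smallest p whose groups did not overlap, 6 are described here by their known roles, a grouping made after the ranking and not tested. Il11ra1, the receptor of IL-11, had 22.03, 25.6 and 21.3 CPM in Con and 51.5, 57.5 and 52.3 CPM in PD (log2 fold change 1.23 ± 0.14, edgeR adjusted p = 0.099, DESeq2 adjusted p = 6.09e-10). Lpar1, a receptor of lysophosphatidic acid, had 9.93, 10.4 and 9.03 CPM in Con and 24.3, 25.5 and 26.5 CPM in PD. In these 2 genes the spread within each group was small against the distance between them. Cdh11, a cadherin of mesenchymal cells, had 3.79, 3.002 and 4.04 CPM and 11.6, 22.1 and 14.4 CPM, and Dpt, which encodes dermatopontin, had 22.6, 17.9 and 15.9 CPM and 38.8, 59.9 and 42.01 CPM. Creb3l1, a transcription factor for collagen secretion, had 11.01, 14.3 and 14.7 CPM in Con and 29.8, 26.2 and 34.2 CPM in PD.

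The remaining genes of this leading group were Gbp4, Cyp1b1, Gpx3 and Cryab. Gpx3, a secreted glutathione peroxidase, had 18.2, 20.9 and 26.1 CPM in Con and 50.99, 162 and 118 CPM in PD (log2 fold change 2.34 ± 0.38). Cyp1b1, a cytochrome P450, had 1.08, 1.45 and 1.41 CPM in Con and 4.77, 9.58 and 8.54 CPM in PD, and Cryab, a small heat shock protein, had 1.72, 1.04 and 0.847 CPM and 9.87, 9.30 and 4.58 CPM. In the TGF-β list 6 of 34 tested members (17.6%) were above the Con range and 2 (5.88%) below it, against 8.12% and 10.9% of all genes. Pmepa1, a target and feedback inhibitor of TGF-β signaling, had 129, 115 and 107 CPM in Con and 254, 163 and 397 CPM in PD (DESeq2 adjusted p = 0.00168). Ltbp2, a matrix protein of the latent TGF-β binding family, had 2.08, 1.86 and 1.22 CPM and 3.36, 9.87 and 4.68 CPM. Tgfb2 overlapped at 10.9, 10.4 and 11.9 CPM in Con and 13.6, 8.03 and 17.6 CPM in PD. Tgfbr3, a coreceptor, was in the reverse order at 30.7, 46.4 and 26.2 CPM in Con and 9.33, 23.3 and 19.4 CPM in PD. Tgfb1 had 4 to 16 counts per tumor and was not tested.

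**Figure D4:**
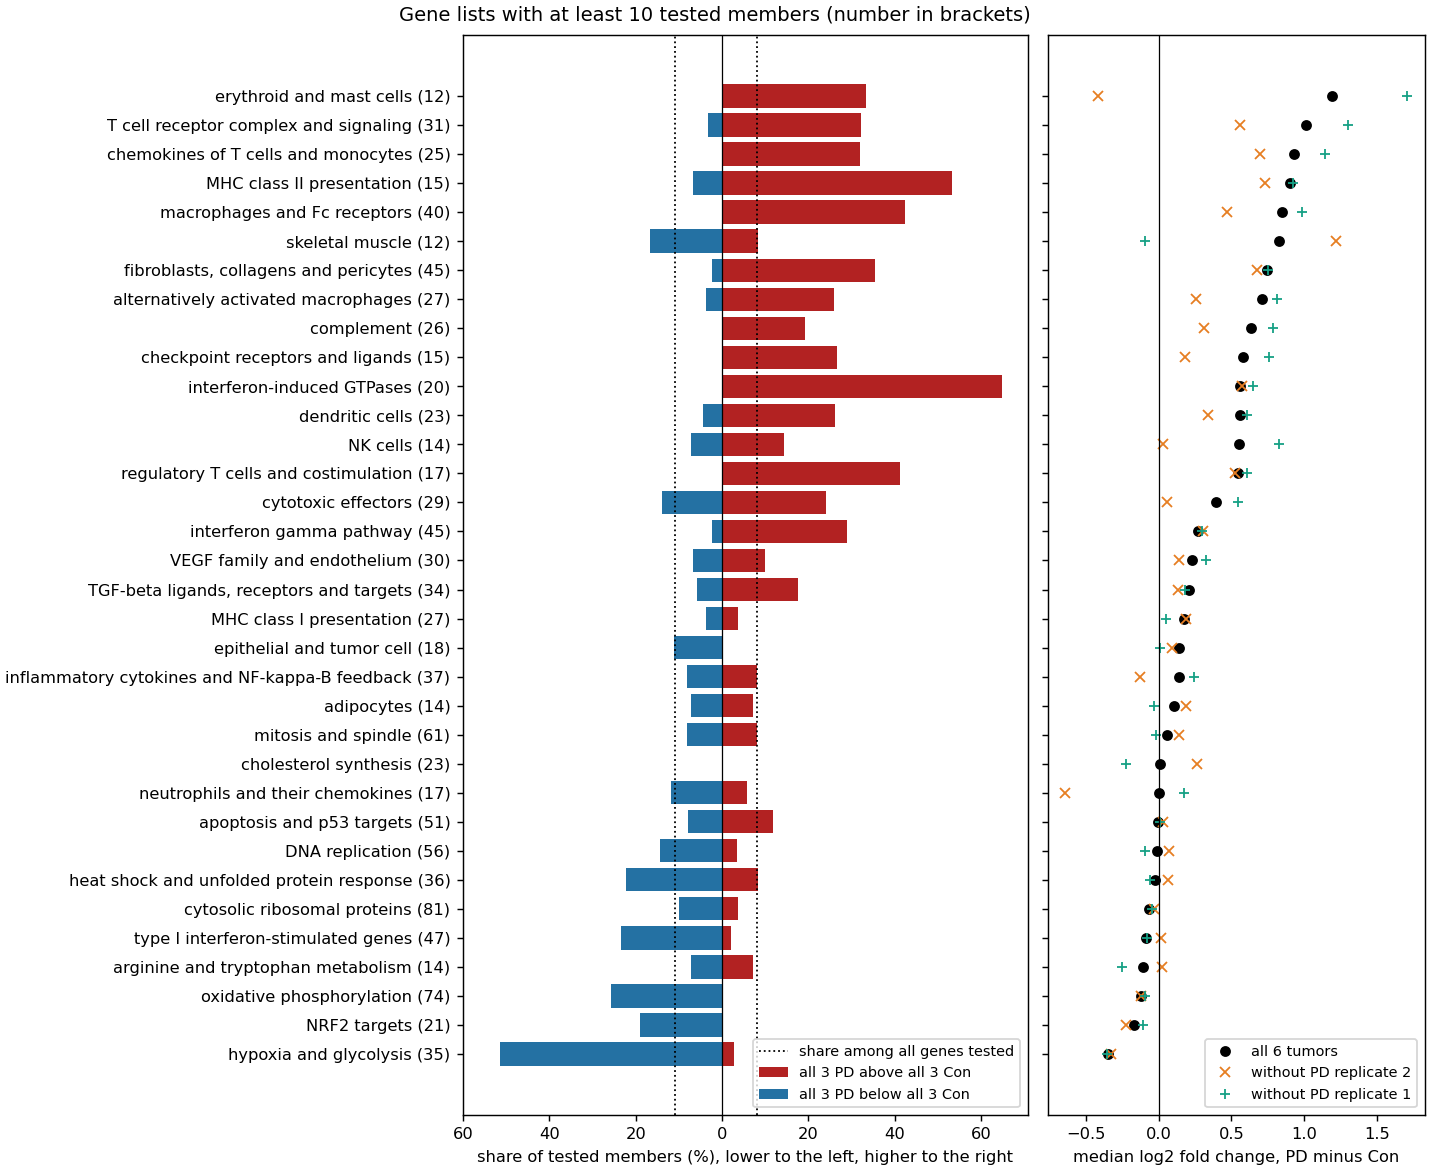
Left, share of tested members of each gene list (number in brackets) with all 3 PD tumors above (right of 0) or below (left of 0) all 3 Con tumors, with the shares among all 12670 genes, 8.12% and 10.9%, as dotted lines. Right, median log2 fold change of each list with all tumors and without PD replicate 1 or 2, where the erythroid and mast cell list goes from 1.19 to -0.42 without PD replicate 2 and the hypoxia and glycolysis list stays between -0.35 and -0.33.

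Many glycolytic and hypoxia-induced genes were lower under anti-PD-1. In this list 29 of 35 tested members had a log2 fold change below 0, 18 (51.4%) had all PD tumors below all Con tumors, against 10.9% of all genes, and 1 had the reverse order. DESeq2 called 5, all lower. The median of -0.35 ranged from -0.43 without Con replicate 3 to -0.22 without Con replicate 2. Ddit4, an inhibitor of mTORC1 induced by hypoxia and other stress, had 583, 513 and 565 CPM in Con and 276, 306 and 271 CPM in PD, a log2 fold change of -0.96 ± 0.10 (SE) with an adjusted p of 0.099 by edgeR and 3.63e-10 by DESeq2. Bnip3, a mitophagy receptor induced by HIF-1, had 257, 319.5 and 225 CPM in Con and 149.9, 179 and 163 CPM in PD (log2 fold change -0.70 ± 0.15). The glycolytic enzyme gene Pgk1 had 321, 368 and 289 CPM in Con and 208, 232 and 231 CPM in PD. Gapdh, often used as a reference gene, had 108, 119 and 102 CPM in Con and 71.2, 81.5 and 84.7 CPM in PD. Pkm, pyruvate kinase, had 1126, 1161 and 1008 CPM and 888, 859.5 and 913 CPM, and Ldha, lactate dehydrogenase, had 843, 1069.8 and 881 CPM and 765, 838 and 779 CPM. For these abundant enzymes the PD tumors lay below the Con tumors by less than 1 on the log2 scale. Vegfa, a further HIF-1 target, overlapped between the groups, with 91.2, 85.6 and 77.3 CPM in Con and 117, 89.8 and 82.4 CPM in PD. Gapdh and some other members have pseudogene copies, and the counting of shared reads is not given in the sources used here.

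Of 74 tested oxidative phosphorylation genes 19 (25.7%, against 10.9% of all genes) were below the Con range and 0 above it (8.12% of all genes). DESeq2 called 1, edgeR gave 11 an unadjusted p under 0.05, and the median was -0.12, between -0.15 and -0.09 when single tumors were left out. Uqcrq, of complex III, had 594, 590.1 and 519 CPM in Con and 404, 423 and 434 CPM in PD (DESeq2 adjusted p = 0.0392). Ndufa7 and Ndufb9, of complex I, had 219.6, 196 and 214 CPM and 193, 197 and 183 CPM in Con and 155, 172 and 152 CPM and 139.6, 162 and 142 CPM in PD. Without TMM scaling the median of all genes was -0.09, and the median of this list was then -0.19. NRF2 targets were below the Con range in 4 of 21 tested members (19%, against 10.9% of all genes) and above it in 0. Leaving out PD replicate 2 put 11 (52.4%) below, against 20.3% of all genes. Me1, malic enzyme, had 106, 122 and 108 CPM in Con and 81.4, 75.7 and 80.7 CPM in PD, and Slc7a11, the cystine transporter, had 42.3, 45.3 and 39.98 CPM and 31.6, 36.2 and 23.6 CPM. In the heat shock and unfolded protein response list 8 of 36 members (22.2%, against 10.9% of all genes) were below the range. Above it were 3 (8.33%, against 8.12% of all genes), and DESeq2 called 2 higher and 0 lower. With PD replicate 2 left out, 9 members (25%, against 16.7% of all genes) were above and 10 (27.8%, against 20.3%) below. The median of this list was then 0.061 rather than -0.028, so its sign depended on that tumor. The members below with all tumors include Phgdh and Psat1 of serine synthesis and Trib3, targets of the factor ATF4. Trib3 had 121, 137 and 96.6 CPM in Con and 82.8, 50.3 and 78.02 CPM in PD, and Phgdh had 126, 131 and 152 CPM and 99.3, 106 and 84.7 CPM.

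Several single genes were lower by large factors. Slpi, a secreted inhibitor of leukocyte proteases, had 199.7, 220.3 and 129.5 CPM in Con and 17.8, 47.6 and 19.5 CPM in PD, a log2 fold change of -2.71 ± 0.39 (SE) with an adjusted p of 0.136 by edgeR and 3.63e-10 by DESeq2. Enpp2, which encodes autotaxin, the enzyme that makes lysophosphatidic acid, had 82.2, 44.4 and 85.98 CPM in Con and 6.94, 16.2 and 4.37 CPM in PD (log2 fold change -2.98 ± 0.47, DESeq2 adjusted p = 9.03e-09). Its receptor gene Lpar1, above, was higher. Aldoc, an aldolase, had 40.99, 16.6 and 31.8 CPM in Con and 4.67, 6.91 and 3.15 CPM in PD. Afp, the fetal serum protein, had 52.5, 46.1 and 50.99 CPM and 17.7, 24.5 and 21.2 CPM, with narrow ranges in both groups. Ereg, a ligand of the EGF receptor, had 16.2, 9.42 and 11.4 CPM in Con and 3.15, 3.66 and 4.17 CPM in PD. Sema3a, a secreted guidance cue, had 155, 99.7 and 135 CPM and 50.2, 68.9 and 50.04 CPM, and Avil, an actin-binding protein, had 6.32, 7.77 and 8.94 CPM and 1.95, 2.26 and 1.53 CPM. Smaller differences were seen in Lonp1, the mitochondrial protease, with 191, 192 and 180.0 CPM in Con and 129, 125 and 116 CPM in PD, and in Ngfrap1, with 727, 684 and 685 CPM and 465, 468 and 502 CPM. These genes and Ddit4 make up the 10 lower genes with the smallest p whose groups did not overlap.

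In the mitosis list 5 of 61 tested members (8.2%) were above the Con range and 5 (8.2%) below it, near the shares among all genes (8.12% and 10.9%), and in the DNA replication list 2 of 56 (3.57%) were above and 8 (14.3%) below. Without PD replicate 2, 21 mitosis genes (34.4%) were above and 5 (8.2%) below, against 16.7% and 20.3% of all genes. The median of the list was then 0.14 rather than 0.06. Leaving out PD replicate 1 instead put 6 (9.84%) above and 7 (11.5%) below, against 12.5% and 14.8% of all genes. The median was then -0.01, so its sign depended on the tumor left out. Mki67, the proliferation marker, had 491, 398 and 350.1 CPM in Con and 528, 395 and 478 CPM in PD, and Top2a had 1508, 1449 and 1286 CPM and 1350.3, 1489.6 and 1269 CPM. The exceptions were small, such as Pttg1, securin, at 167, 142 and 151 CPM in Con and 120.2, 104 and 104 CPM in PD, and Ccne2, cyclin E2, at 165, 168 and 151 CPM and 227, 217 and 193 CPM. Apoptosis and p53 targets had 6 of 51 members (11.8%) above and 4 (7.84%) below. The first included Gsdmd, the pore former of pyroptosis, at 8.13, 6.63 and 8.75 CPM in Con and 11.1, 18.5 and 13.3 CPM in PD, and Casp8 at 51.7, 39.03 and 43.9 CPM and 59.7, 102 and 62.1 CPM. In the VEGF and endothelium list 3 of 30 (10%) were above and 2 (6.67%) below, near the shares among all genes. Those below were Angpt1, the ligand of TIE2, at 31.2, 18.8 and 24.1 CPM in Con and 15.6, 11.3 and 10.1 CPM in PD, and Apln, at 38.1, 40.7 and 30.9 CPM and 27.6, 25.5 and 22.4 CPM. Ido1 and Ido2, the tryptophan-degrading dioxygenases, overlapped, with 6.68, 3.11 and 2.82 CPM and 11.5, 7.56 and 14.3 CPM in Con and 3.04, 3.24 and 2.85 CPM and 11.1, 5.22 and 10.3 CPM in PD. Of the 81 tested ribosomal protein genes 3 were above and 8 below the Con range. Inflammatory cytokine genes had 3 of 37 members above and 3 below, and cholesterol synthesis had 0 of 23 in either direction. Without PD replicate 2, 9 cholesterol genes (39.1%, against 16.7% of all genes) were above, with a median of 0.27 rather than 0.01. In the same setting 24 ribosomal protein genes (29.6%, against 20.3% of all genes) were below. Without PD replicate 1, 0 cholesterol genes were above and 2 (8.7%, against 14.8% of all genes) below, with a median of -0.22. The sign for cholesterol synthesis thus depended on the tumor left out.

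PD tumors were also set against the tumors given SFIH alone, as another treated group without the antibody. In a fit of the 9 tumors of the Con, SFIH and PD groups, 62 of 13010 genes (0.477%) had an edgeR adjusted p under 0.05 between PD and SFIH, 27 (0.208%) higher and 35 (0.269%) lower in PD, and 2665 (20.5%) had an unadjusted p under 0.05. DESeq2 called 877 (6.74%). This count was not stable. It was 0 with the PD and SFIH tumors alone, 0 with all 12 tumors, and between 0 and 391 when single tumors of the 9 were left out. Irf1 had 273, 288 and 291 CPM in the SFIH tumors and 550.3, 508 and 581 CPM in the PD tumors on the scale of this fit, a log2 difference of 0.94 ± 0.12 (SE), with an edgeR adjusted p of 0.0293. Gbp4 had 23.4, 23.5 and 16.4 CPM in SFIH and 42.7, 56.1 and 68.7 CPM in PD, Gbp5 had 50.4, 66.5 and 68.2 CPM and 114, 109 and 129.5 CPM, and Iigp1 had 264, 301 and 308 CPM and 462, 464 and 541 CPM. Cxcl9 had 124, 110.3 and 109 CPM in SFIH and 274, 392 and 358 CPM in PD, a log2 difference of 1.57 ± 0.27 (SE; edgeR adjusted p = 0.0436). These 5 genes were taken from the 27 called higher, which in all held 3 of the 20 GTPases, 1 of 45 interferon gamma pathway genes and 1 of 25 chemokines. Also among the 27, and named after their values were seen, Timp3, an inhibitor of metalloproteases, and Igfbp5 had 25.6, 36.4 and 52.4 CPM and 6.34, 9.99 and 7.18 CPM in SFIH and 124, 108 and 186 CPM and 22.4, 55.98 and 27.8 CPM in PD. Lower in PD were Afp (-1.24 on the log2 scale), Aldoc (-2.87), Enpp2 (-2.44), Gapdh (-0.62) and Ndufb9 (-0.59).

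Against the common Con tumors, the log2 fold changes under SFIH were -0.37 for Irf1, -0.05 for Gbp4 and -0.04 for Cxcl9, beside 0.58, 1.35 and 1.53 under anti-PD-1 in the same fit of 9 tumors. Both sets of values use the same 3 Con tumors and are therefore not independent of each other. The 10 leading genes lower under anti-PD-1 were chosen against these Con tumors too, and for SFIH against Con they ranged from -0.95 for Ddit4 to 0.26 for Aldoc, with none passing the edgeR test. Ddit4 had 0.00 between the PD and SFIH groups. The hypoxia and glycolysis list had a median of -0.18 for SFIH against Con and -0.16 for PD against SFIH, whereas the interferon-induced GTPases had 0.01 and 0.60. Whether the effect of anti-PD-1 differed in the presence of SFIH was tested as an interaction over all 12 tumors. No gene of 13464 passed in edgeR, where 344 (2.55%) had an unadjusted p under 0.05, and DESeq2 called 1 (0.00743%). Leaving out single tumors left edgeR with 0 calls each time, while the number with an unadjusted p under 0.05 lay between 179 without PD replicate 1 and 2384 of 13856 without Comb replicate 1, and was 735 without Comb replicate 2 and 631 without PD replicate 2. The spread between tumors was larger in that fit, with a common dispersion of 0.158 against 0.053 in the 6 tumors, so that it could show only larger differences.

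**Figure D5:**
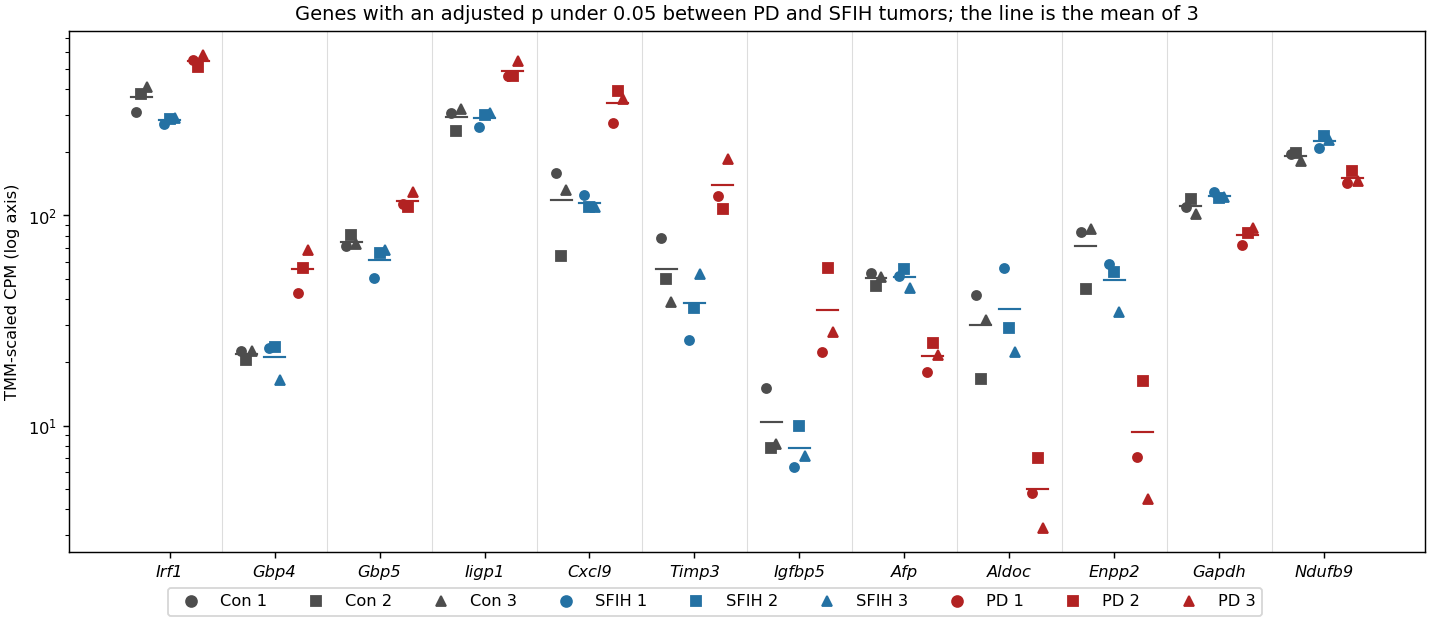
TMM-scaled CPM (log axis) of 12 genes that differed between PD and SFIH with an edgeR adjusted p under 0.05, in each tumor of the Con, SFIH and PD groups, with the mean of 3 tumors as a line. The PD tumors are above the SFIH tumors for the first 7 genes and below them for the last 5, and the Con tumors lie near the SFIH tumors for Gbp4, Iigp1 and Cxcl9.

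The 3 PD tumors differed from each other in how far these lists lay from Con. Among the 1029 genes above the Con range, PD replicate 2 was the highest PD tumor in 550, replicate 1 in 249 and replicate 3 in 230. Among the 1385 genes below the range it was the lowest in 525, against 434 and 426. Without replicate 2 the median log2 fold change of the interferon-induced GTPases was 0.57 rather than 0.56, that of the hypoxia and glycolysis list -0.33 rather than -0.35, that of the fibroblast list 0.68 rather than 0.75 and that of the MHC class II list 0.73 rather than 0.90. The T cell list moved from 1.01 to 0.56. A count of members outside the Con range cannot fall when a PD tumor is left out, and among all genes the shares became 16.7% above and 20.3% below without replicate 2. Without replicate 1, which held the least T cell RNA of the 3, 19 of 31 T cell genes and 30 of 40 macrophage genes were above the Con range, against 12.5% of all genes.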

How the data were processed

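RNA of 12 MC38 tumors had been made into QuantSeq 3′ mRNA libraries without molecular identifiers. The authors deposited raw counts per gene symbol for all tumors in a single table. The aligner, genome build and annotation are not given in the sources used here. Columns were assigned to tumors by the descriptions in the labels. Totals lay between 7870741 and 12261032 counts per tumor, and floors cover counting error only.

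The 3 PD and 3 Con tumors were compared alone, because the Comb tumors spread more, with edgeR 4.0.16 in R 4.3.3. Genes were filtered by filterByExpr and scaled by TMM, and the two-sided quasi-likelihood test was adjusted by Benjamini and Hochberg over 12670 genes (threshold 0.05). DESeq2 1.42.0 was an alternative and left 2 adjusted p-values empty. PD against SFIH was fitted on 9 tumors and the interaction on 12. Standard errors were taken as the log2 fold change over the square root of F. The table names 46 symbols more than 1 time, and these were kept apart.

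Counts were simulated for 12552 genes with the common dispersion of PD against Con (0.053), the same for every gene and tumor. In them edgeR recovered 51% of 100 genes changed 2-fold and 100% of 100 changed 4-fold, with 7 false calls. DESeq2 recovered 50% and 100%, with 6 false calls. In the real tumors the spread differs between genes and PD replicate 2 stood apart, so these shares do not give the power of the comparison.

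The comparison and the 36 gene lists (1199 symbols, 1174 in the table, 1018 tested) were chosen with earlier results of these data known. Named genes were up to 10 per direction whose groups did not overlap, with a mean of at least 50 counts in the higher group, ranked by p because no gene passed. Added to these were up to 4 genes with the smallest p and up to 2 with the highest counts per list, and genes the study measured. Gbp5, H2-Aa, Timp3, Igfbp5, Pdgfra, Pdgfrb and Kit were named after their values were seen. Alternatives were DESeq2, other scalings and filters, a fold threshold of 1.5, other sets of tumors, a replicate block, and each tumor left out. DESeq2 with each tumor left out, and lists without PD replicate 1 or 2, were added after seeing the data. Some members of the lists are not reported here by name. Start windows came from RefSeq. Figures were drawn with matplotlib 3.10.9.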

Additional observations from a re-analysis of the deposited data

How the results depend on the processing

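For PD against Con, edgeR called 0 genes with no TMM scaling, with upper-quartile or RLE scaling, with a minimum of 50 counts, with the replicate block, with 9 or 12 tumors in the fit and with the fold threshold. DESeq2 called 278 genes, and 13 were called without a filter on low counts, all 13 also by DESeq2. With each tumor left out in turn edgeR called 0 to 80 genes, and of the 80 without PD replicate 2 DESeq2 called 45 with all tumors. DESeq2 itself called between 147 and 639 with 1 tumor left out. For PD against SFIH the 62 calls became 877 in DESeq2, 142 without a filter, 0 with all 12 tumors, 0 with the PD and SFIH tumors alone, 1 with a replicate block, and 0 to 391 with 1 tumor left out. They were 0 without any one of Con replicates 1 and 3, PD replicates 1 and 3 and SFIH replicates 1 and 2, 9 without Con replicate 2 and 1 without SFIH replicate 3. The interaction gave 0 calls under all alternatives but DESeq2, which gave 1. The cause of these differences was not tested.

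Of 127 genes followed through up to 15 alternatives, 121 kept their sign. For the others, with 1 tumor left out, log2 fold changes ran from -0.857 to 0.0642 for Gzmb, -0.207 to 0.0672 for Foxp3, -0.21 to 0.219 for H2-D1 (-0.0611 without TMM), -0.0311 to 0.523 for Tgfb2, -0.115 to 0.0192 for Top2a and -0.694 to 0.0538 for Ido1. The replicate block gave 0 calls for PD against Con and 0 for the interaction. Deviations of Con and PD tumors with the same number had correlations of -0.149, -0.297 and -0.232, and pairs of unlike number had -0.126 to 0.271. Deviations from a mean of 3 tumors cancel within a group, so these values depend on each other. They do not decide whether the numbers pair the tumors, and pairs with SFIH or Comb tumors were not computed. Ifng and Pdcd1 had few counts in each tumor, which sets a lower limit on their error.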

Other observations

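Outside the comparisons of immune and metabolic genes, the 3 PD tumors differed from each other in a few tissue-specific lists. Among 12 tested erythroid and mast cell genes the median log2 fold change was 1.19 with all tumors and -0.42 without PD replicate 2. The 12 tested skeletal muscle genes had a median of 0.83, and of -0.10 without PD replicate 1. Genes of cholesterol synthesis had mean log2(CPM + 1) values of 6.42 in PD replicate 1, 5.51 in replicate 2 and 6.14 in replicate 3, against 5.97 to 6.26 in Con. The list of adipocyte genes had 1 of 14 tested members above and 1 below the Con range, the skin list 0 of 6 above and 1 below, the epithelial and tumor cell list 0 of 18 above and 2 below, and the arginine and tryptophan list 1 of 14 in each direction.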
